A study of Mus musculus with 6 samples.

Results

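This account covers 10 genes of fibroblast growth factor (FGF) signalling in mouse cells that carry or lack Ldb1: the ligand genes Fgf3, Fgf4, Fgf5, Fgf8, Fgf10 and Fgf15, and the receptor genes Fgfr1, Fgfr2, Fgfr3 and Fgfr4. They were chosen by name, 6 ligands and 4 receptors out of 18194 genes measured, and all 10 had at least 1 probe set assigned to that gene alone. The cells were Flk1+ cells, a class that holds the blast colony-forming cells from which blood and vessel cells arise in culture. They were isolated at day 4 from embryoid bodies grown in suspension without LIF, from embryonic stem (ES) cells that were either Ldb1+/+ (wild type) or Ldb1-/- (knockout). Each genotype had 3 arrays, labelled as biological replicates 1 to 3. The labels name no ES cell clone, so the p-values measure the spread between these arrays, and a difference between lines cannot be told apart from one between genotypes. Values are log2 levels, so a difference of 1 is a doubling or halving of the signal, and levels are compared between arrays within a probe set, not between genes.

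FGFs are secreted proteins that bind receptor tyrosine kinases together with heparan sulphate on the cell surface. The receptors signal mainly through adaptor proteins, RAS and the ERK kinases, and the pathway switches on its own inhibitors. In the early mouse embryo FGF4 and FGF5 are known from the epiblast, FGF8 is needed for mesoderm to leave the primitive streak, and FGFR1 is the main receptor there. LDB1, the protein absent from the knockout, is an adaptor that links LIM-domain proteins to DNA-bound partners, in blood cells with GATA1 and TAL1 at GATA and E-box sequences.

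Fgf3, Fgf4 and Fgf15 lie next to each other in this order on chromosome 7, and Fgfr2 lies elsewhere on the same chromosome. The promoters of Fgf3 and Fgfr2 are shown because these genes were lower in every knockout array, and that of Fgf4 because it lies between Fgf3 and Fgf15. The sequences are RefSeq's for build GRCm38.p6, from 250 bases before to 50 bases after the gene start, 5′ to 3′ on the gene's strand. Capitals mark matches on either strand to a GATA motif (AGATAA or its variant AGATAG, and the same pair with a leading T, which reads TGATAA or, as a variant, TGATAG) or to an E-box (CANNTG). The windows are chr7:144838362-144838661 on the plus strand for Fgf3, chr7:144861136-144861435 on the plus strand for Fgf4 and chr7:130266759-130267058 on the minus strand for Fgfr2.
Fgf3: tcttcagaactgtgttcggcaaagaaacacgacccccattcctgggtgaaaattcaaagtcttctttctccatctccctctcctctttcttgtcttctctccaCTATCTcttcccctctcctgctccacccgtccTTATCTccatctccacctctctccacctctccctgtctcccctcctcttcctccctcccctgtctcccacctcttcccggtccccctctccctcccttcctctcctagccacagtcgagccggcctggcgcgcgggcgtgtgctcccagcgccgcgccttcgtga
Fgf4: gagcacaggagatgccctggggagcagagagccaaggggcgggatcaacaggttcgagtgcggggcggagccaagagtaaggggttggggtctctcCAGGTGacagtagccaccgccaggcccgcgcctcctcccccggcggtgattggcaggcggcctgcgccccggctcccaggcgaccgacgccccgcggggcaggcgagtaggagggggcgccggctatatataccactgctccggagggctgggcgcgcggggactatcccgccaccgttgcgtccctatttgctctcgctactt
Fgfr2: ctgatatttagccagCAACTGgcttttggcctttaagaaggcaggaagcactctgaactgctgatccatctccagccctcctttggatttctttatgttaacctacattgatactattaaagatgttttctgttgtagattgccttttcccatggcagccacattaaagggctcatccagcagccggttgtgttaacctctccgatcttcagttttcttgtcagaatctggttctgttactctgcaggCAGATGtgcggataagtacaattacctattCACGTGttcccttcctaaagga
The Fgf3 window held 2 GATA matches and 0 E-boxes. The Fgf4 window held 1 E-box and the Fgfr2 window 3, both with 0 GATA matches. No match of one motif overlapped one of the other. Among 32851 promoter windows of the same length, 29.8% held a GATA match and 72.3% an E-box. Windows were found for 7 of the 10 genes. Those of Fgf10 and Fgfr4 held 2 E-boxes each, that of Fgf5 held neither motif, and of the 2 windows of Fgfr3 1 held a single E-box. A match describes letters in the window and does not show binding.

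Array medians over the probe sets lay between 5.71 and 5.77, and the median of all probe set means was 5.74. In control probe sets both arrays numbered 3 differed from the rest: they read 12.93 for the 5′ end of Gapdh, and the other 4 arrays read 10.19 to 11.11. The upper quartile of wild-type replicate 3 was 7.92, against 8.14 to 8.27 in the other arrays. For Ldb1 itself the mean was 7.80 ± 0.50 (SD, n = 3) with the gene and 7.37 ± 0.83 (SD, n = 3) after its loss (limma, adjusted p = 1.00), and whether the probe set lies inside the deleted stretch is not given, so that these values do not check the genotype. Of 9 haemangioblast markers, 8 were above the median level, among them Kdr, the gene of Flk1, at 11.33 to 12.44, while Pecam1 was below it. Cardiac mesoderm and primitive streak markers were above it too (6 of 6 and 5 of 5 measured). In such bulk samples, fewer cells of a type and less RNA per cell cannot be told apart.

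Fgf3, Fgf15 and Fgfr2 read lower in knockout cells. For each of these 3 genes all knockout arrays read below all wild-type arrays, by a mean of 1.20 to 1.42 on the log2 scale, or 2.31-fold to 2.67-fold. Fgf8 and Fgfr1 read slightly higher and Fgfr3 slightly lower in the knockout array of all 3 replicate numbers, with groups that overlapped. Fgf5 varied widely, and Fgf10 and Fgfr4 had means that were nearly level. The 4 knockout differences that were largest in either direction were those of Fgfr2, Fgf3, Fgf15 and Fgf5. With limma and p-values adjusted over all 18194 genes by Benjamini-Hochberg, 0 of the 10 genes passed 0.05, where 0.0220% of all genes did. At an unadjusted p under 0.05 there were 3, Fgf3, Fgf15 and Fgfr2, all lower in the knockout, where 3.85% of all genes were past that limit, 2.25% lower and 1.60% higher. With the replicate number as a block, 1 of the 10, Fgf3, passed the adjusted threshold, where 0.341% of all genes did, 0.231% lower and 0.110% higher. In that fit 5 had an unadjusted p under 0.05, 4 lower (Fgf3, Fgf15, Fgfr2 and Fgfr3) and 1 higher (Fgf8), where 8.94% of all genes did, 5.06% lower and 3.87% higher. Non-overlapping groups with knockout lower were seen in 3 of the 10 and in 4.47% of all genes, and with knockout higher in 0 of the 10 and in 3.45% of all genes. The knockout array was lower at all 3 numbers for 4 of the 10 (14.9% of all genes) and higher at all 3 for 2 (13.5% of all genes). The median difference over the 10 genes was −0.11, and over all genes it was −0.01.

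**Figure D1:**
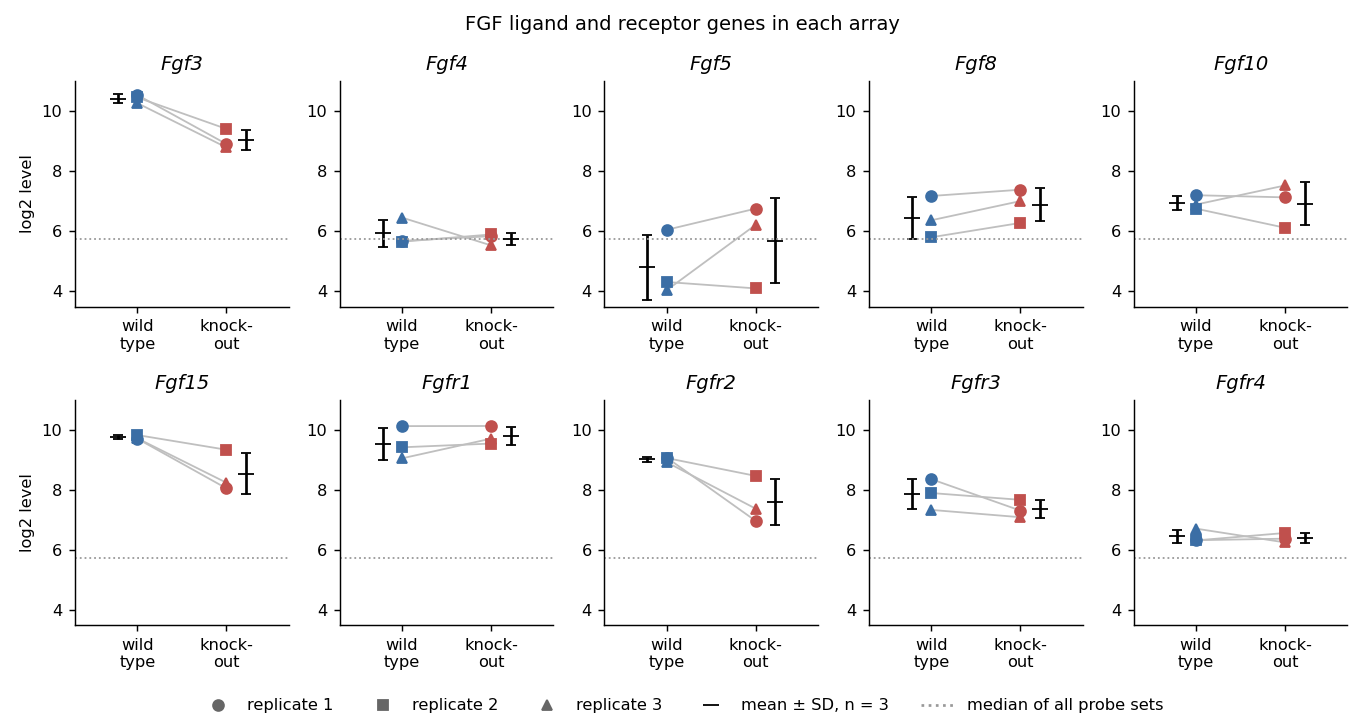
Log2 level of each gene (vertical axis, the same scale in every panel) in the 3 wild-type (blue) and 3 knockout (red) arrays, with grey lines joining arrays of the same replicate number and black bars for mean ± SD (n = 3). The knockout points of Fgf3, Fgf15 and Fgfr2 lie below all of their wild-type points, and the other 7 genes overlap.

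Among the ligands, Fgf3 had the difference farthest from 0. FGF3 is a secreted factor expressed in the streak and later needed in the inner ear and tail. Its probe set with the highest mean read 10.53, 10.45 and 10.26 in wild-type replicates 1, 2 and 3 and 8.90, 9.41 and 8.79 in knockout replicates 1, 2 and 3. The lowest wild-type array was thus well above the highest knockout array. The means were 10.42 ± 0.14 and 9.03 ± 0.33 (SD, n = 3), a difference of −1.38 (SE 0.19, 95% interval −1.84 to −0.92). This did not pass without the block (limma, adjusted p = 0.167) and passed with it (adjusted p = 0.0256). Both other probe sets of Fgf3 gave like values. The first read 9.34 to 9.81 in wild-type and 8.00 to 8.70 in knockout arrays, a difference of −1.29. The second read 9.42 to 9.62 and 8.04 to 8.69, a difference of −1.16. The groups did not overlap in any of the 3 probe sets, and in each of them knockout replicate 2 was the highest knockout array. When all 45037 probe sets were tested one by one, however, 0 of the 25 probe sets of the 10 genes passed with or without the block, and the blocked adjusted p of the Fgf3 probe set with the highest mean was 0.0705. The blocked call was also lost without both arrays of number 1 (adjusted p = 0.0569), with the difference at −1.26.

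Fgf15 lies next but 1 after Fgf3. It encodes the mouse FGF that acts as a hormone from the gut on bile acid synthesis and is also expressed in the embryo. It read 9.70, 9.82 and 9.71 in wild-type replicates 1 to 3, a narrow range, and 8.05, 9.33 and 8.23 in knockout replicates 1 to 3. Knockout replicates 1 and 3 were thus far below the wild type and knockout replicate 2 was close to it. The difference was −1.20 (SE 0.33, 95% interval −1.99 to −0.42; limma, adjusted p = 0.788, blocked 0.123). By replicate number it was −1.65, −0.49 and −1.48. Without both arrays of number 2 it was −1.56 and passed with the block (adjusted p = 0.000436), and without those of number 3 it was −1.07 and also passed (adjusted p = 0.0118). Without those of number 1 it was −0.98 and did not pass (adjusted p = 0.339). The fits without numbers 1, 2 and 3 called 50, 267 and 815 of all 18194 genes. Each of these fits holds only 2 pairs, so its p-values lean heavily on the spread that limma borrows from all genes.

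Fgf4, between Fgf3 and Fgf15 on the chromosome, gave different answers by probe set. It encodes an epiblast factor that supports trophoblast and the exit from naive pluripotency. The probe set with the highest mean read 5.68, 5.66 and 6.46 in wild-type and 5.84, 5.90 and 5.53 in knockout replicates 1 to 3. Those groups overlapped, and the difference was −0.18 (95% interval −0.76 to 0.41; limma, adjusted p = 1.00). The other 3 probe sets were designed from 1 shared expressed sequence and so are not independent of each other. The first of them read 6.93, 6.36 and 5.01 in wild-type and 4.86, 5.25 and 4.63 in knockout arrays. By replicate number the difference was −2.07, −1.11 and −0.38, but wild-type replicate 3 read below knockout replicate 2. The second, with a difference of −0.85, and the third, with a difference of −0.26, had groups that did not overlap. None of these 3 passed (limma, adjusted p = 1.00 for each). All 4 probe sets lay close to or below the median of 5.74.

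By the probe set with the highest mean, no other gene measured around this locus had a difference as far from 0 as those of Fgf3 and Fgf15. Fgf4 differed by −0.18 there, but by −1.19, −0.85 and −0.26 in its other probe sets, all below the median level. Of 20 protein-coding genes on both sides of Fgf3, 12 before it and 8 up to the end of the chromosome's list, 15 that are not FGF genes were measured. Their differences ran from −0.42 for Ano1, a chloride channel gene that lies directly before Fgf3, to 0.04 for Ccnd1, which encodes the cell cycle regulator cyclin D1, and 0 of the 15 passed with the block. Of the 15, only Tnfrsf23 and Ccnd1 were higher in knockout cells. The groups of 2, Nadsyn1 and Tpcn2, did not overlap, with the knockout lower as in 4.47% of all genes. Ano1 read 6.44 ± 0.46 in knockout and 6.86 ± 0.35 in wild-type arrays. It was lower in every pair (−0.58, −0.11 and −0.58), as were 14.9% of all genes. Its unadjusted p with the block was 0.0263 (limma, adjusted p = 0.449). Ccnd1 read 10.09 ± 0.50 in knockout and 10.04 ± 0.26 in wild-type arrays (SD, n = 3 each). The 1413 genes of chromosome 7 had a median difference of −0.02.

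**Figure D2:**
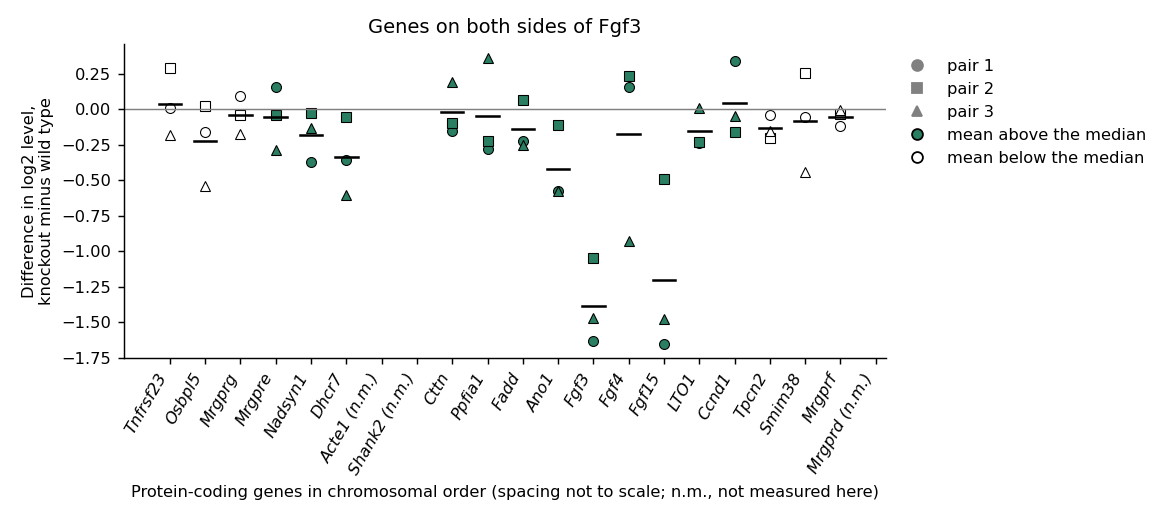
Difference in log2 level, knockout minus wild type, for protein-coding genes in chromosomal order around Fgf3 (horizontal axis, spacing not to scale). Symbols are the 3 pairs, bars their mean, and open symbols genes whose mean is below the median of all probe sets. Each gene is shown by its probe set with the highest mean. Fgf3 at −1.38 and Fgf15 at −1.20 stand below the other genes, which lie between −0.42 and 0.04.

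Fgf5, Fgf8 and Fgf10 did not pass the adjusted threshold in either fit over all arrays. Fgf5, a marker of the primed epiblast and later a brake on hair growth, read 6.05, 4.31 and 4.04 in wild-type and 6.76, 4.10 and 6.22 in knockout replicates 1 to 3. It was the 1 gene of the 10 with a mean below the median of all probe sets. The arrays split within both genotypes, with both replicate 1 arrays and knockout replicate 3 high and the others low. The difference of 0.89 had an interval of −1.0 to 2.78 (limma, adjusted p = 1.00), and leaving out 1 array moved it to between 0.36 (knockout replicate 1) and 1.69 (knockout replicate 2). Without both arrays of number 2 it was 1.44 and passed with the block (limma, adjusted p = 0.00802), whereas without those of number 1 it was 0.98 (adjusted p = 0.934) and without those of number 3 it was 0.25 (adjusted p = 0.598). Only 2 pairs remain in each of these fits, with the limit given for Fgf15. The other Fgf5 probe set differed by 0.19. Of 7 markers of pluripotent cells and epiblast 5 were higher in knockout cells, and 6 were above the median level. Their mean level ran from 7.93 to 8.55 in wild-type and from 8.05 to 8.75 in knockout arrays, with a median difference of 1.16 in pair 3 and of −0.13 and 0.04 in pairs 1 and 2. Knockout replicate 3 read highest for Pou5f1 (10.82) and Nanog (9.26), the core pluripotency factors, against 8.85 to 9.65 and 7.78 to 8.10 elsewhere. The same array also read highest for Otx2 (10.07), but lowest of all arrays for Esrrb (6.68) and Dnmt3b (11.46). For Sox2 it lay in between (5.77). Zfp42, a naive pluripotency marker, read 6.15 to 6.90 in wild-type and 7.21 to 7.56 in knockout arrays. It lies on chromosome 8, where 71.0% of 932 genes were higher in the knockout, and the part of that shift in its value was not tested. The part of pluripotent and epiblast cells in the Fgf5 values was not tested.

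Fgf8, the streak ligand, was measured by 1 probe set. It read 7.18, 5.80 and 6.37 in wild-type and 7.39, 6.28 and 7.01 in knockout replicates 1 to 3. The order of the numbers was the same in both genotypes, and the knockout array was higher at each number, by 0.21, 0.48 and 0.64. The difference was 0.44 (95% interval −0.53 to 1.42; limma, adjusted p = 1.00, blocked 0.380), and leaving out 1 array moved it to 0.12 (wild-type replicate 2), 0.19 (knockout replicate 1) or 0.80 (wild-type replicate 1). Fgf8 is the sixth protein-coding gene before Ldb1 on chromosome 19, and 22 other measured genes of that stretch, up to 12 on each side of Ldb1, differed by −0.21 to 0.24. Fgf10, which signals from mesenchyme to epithelium in limb and lung, read 7.20, 6.75 and 6.89 in wild-type and 7.13, 6.12 and 7.53 in knockout arrays. Its differences by number were −0.07, −0.63 and 0.64, with a mean of −0.02 (95% interval −0.87 to 0.82) that took either sign as arrays were left out.

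Among the receptors, Fgfr2 was the one whose groups did not overlap. FGFR2 is used in limb, lung and placenta, in a form for epithelium and a form for mesenchyme. Its probe set with the highest mean read 9.07, 9.05 and 8.91 in wild-type and 6.96, 8.46 and 7.37 in knockout replicates 1 to 3. The wild-type arrays lay close together, whereas the knockout arrays were spread out, with replicate 2 closest to the wild type. The difference was −1.42 (SE 0.36, 95% interval −2.28 to −0.55; limma, adjusted p = 0.723, blocked 0.123). It was −1.10 without knockout replicate 1 and −1.85 without knockout replicate 2. With the block it passed without the arrays of number 2 (−1.83, adjusted p = 0.000111) or of number 3 (−1.35, adjusted p = 0.00858), but not without those of number 1 (−1.07, adjusted p = 0.247). These fits hold only 2 pairs each, with the limit given for Fgf15. Both other probe sets of Fgfr2 lay below the median level and were lower in the knockout without overlap, with differences of −0.67 (5.11 to 5.81 in wild-type, 4.77 to 4.96 in knockout arrays) and −0.33. With probe sets averaged the difference was −0.81, so its size rests on the first probe set.

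Fgf15 and Fgfr2 followed each other across the arrays. Knockout replicate 2 was the highest knockout array for both genes, and knockout replicate 1 the lowest. Among 11198 other genes above the median level, Fgfr2 had the highest Pearson correlation with Fgf15 over the 6 arrays (r = 0.995), and Fgf15 had the second highest with Fgfr2 after Fam114a2 (r = 0.996). With 6 arrays in 2 genotypes these values are a description, taken as the highest among 11198 genes. By the same measure the 3 genes most like Fgf3 were Gfi1b, a blood transcription factor gene (r = 0.996), Capn6 and Gyg (r = 0.994 for both), with knockout differences of −1.58, −2.09 and −0.83. Those most like Fgfr1 were Efna2, Fam181b and Trip12, with r = 0.994, 0.994 and 0.993. The genes most like Fgf15 after Fgfr2 were Fam114a2 (r = 0.986) and Armh4 (r = 0.985), and Iah1 was the third for Fgfr2 (r = 0.988). Fgf8 was followed most closely by Zfp428, Hey1, a target gene of Notch signalling, and Zfp335 (r = 0.983, 0.976 and 0.972), and Fgf10 by Rbm19, Btg2 and Prmt5 (r = 0.988, 0.986 and 0.986). For Fgf4 they were Sema6c, Cfap43 and Slc51b, for Fgfr3 Rdh14, Pfn2 and C330018D20Rik, and for Fgfr4 Ahdc1, Il17re and Miat. Over the 9 of the 10 genes that were above the median level, the highest correlation with another gene ran from 0.983 for Fgf8 to 0.999 for Fgf4.

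Fgfr1, the main receptor of the epiblast and nascent mesoderm, was level in pair 1 and higher in knockout replicate 3. It read 10.12, 9.41 and 9.04 in wild-type and 10.12, 9.54 and 9.70 in knockout replicates 1 to 3. The groups overlapped, and the difference was 0.26 (95% interval −0.45 to 0.97; limma, adjusted p = 1.00). Without wild-type replicate 3, the array with the lowest upper quartile, it was 0.02, without knockout replicate 1 it was 0.09, and without wild-type replicate 1 it was 0.56. A second probe set above the median read 7.48, 7.10 and 5.65 in wild-type and 7.77, 7.17 and 6.77 in knockout arrays, also higher at each number, and the other one, below the median, differed by −0.08. Fgfr1 lies on chromosome 8, where 71.0% of 932 genes were higher in knockout cells. The median difference of the 606 of them above the median level was 0.26, equal to that of Fgfr1, and the part of this shift in the Fgfr1 value was not tested.

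Fgfr3, which restrains growth of cartilage, read 8.35, 7.89 and 7.33 in wild-type and 7.31, 7.66 and 7.09 in knockout replicates 1 to 3. It was lower in the knockout array of each number, by differences of −1.04, −0.23 and −0.24, although the groups overlapped. The mean difference was −0.50 (95% interval −1.18 to 0.17; limma, adjusted p = 1.00, blocked 0.486), and leaving out 1 array moved it to between −0.26 (wild-type replicate 1) and −0.77 (wild-type replicate 3). Its second probe set, below the median, differed by −0.02. Fgfr4, the liver receptor for the bile acid signal, had 5 probe sets, of which 1 was above the median level. That one read 6.31 to 6.71 in wild-type and 6.25 to 6.56 in knockout arrays, a difference of −0.05 (95% interval −0.45 to 0.34). The other 4 differed by −0.12 to 0.08.

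**Figure D3:**
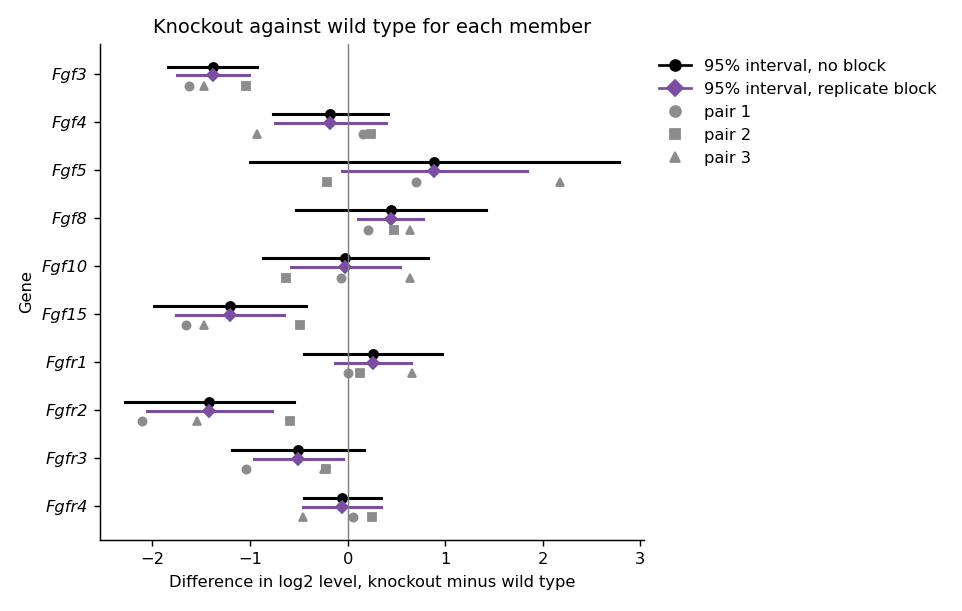
Difference in log2 level, knockout minus wild type, for each gene (rows), with the 95% interval of the limma fit without the block (black) and with the replicate number as a block (purple), and the 3 pair differences (grey). The intervals without the block lie wholly below 0 for Fgf3, Fgf15 and Fgfr2, those with the block also below 0 for Fgfr3 and above 0 for Fgf8, all before adjustment, and Fgf5 has the widest, −1.0 to 2.78.

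The probe sets of a gene can detect different transcripts or stretches, so they were also set side by side. Of the 25 probe sets, 12 were above the median level. For Fgf3 and Fgfr2 all 3 probe sets were lower in the knockout without overlap. The probe sets of Fgf4 and of Fgfr1 did not give 1 answer.

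**Figure D4:**
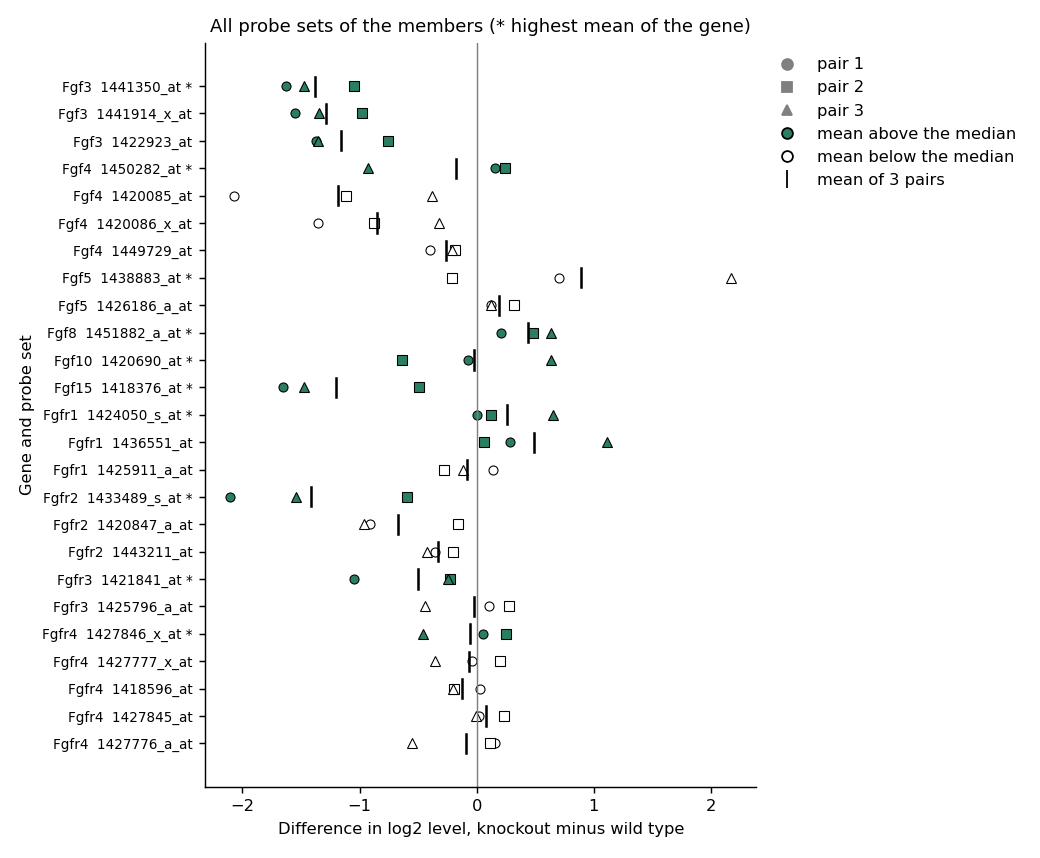
Difference in log2 level, knockout minus wild type, in each pair (symbols) and its mean (bar) for all 25 probe sets of the 10 genes, with filled symbols for means above the median of all probe sets. The Fgf3 and Fgfr2 probe sets lie left of 0 in every pair, whereas the 5 of Fgfr4 lie on both sides of it.

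The other genes of the pathway were taken from 6 lists. Of 89 listed genes 80 were measured, and the other 9 were not analysed here. In limma 0 of the 80 passed without the block and 0 with it, with 4 and 11 at an unadjusted p under 0.05, where 3.85% and 8.94% of all genes were. With the block and the arrays of number 2 or 3 left out, 2 (Dusp6 and Gab1) and 7 passed, where 267 and 815 of all 18194 genes did. Of the 16 other genes of the FGF family, not all of which encode secreted ligands, 14 were below the median level. Fgf13, an intracellular FGF-like protein, was 1 of the 2 above it, at 8.07 to 9.20 in wild-type and 7.82 to 9.38 in knockout arrays. The difference that was farthest from 0 in this list was −0.35, for Fgf18, a bone and lung ligand below the median level. The list's median was −0.09.

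Among 23 co-receptor and heparan sulphate genes the median was −0.04, with 13 lower and 10 higher. Sdc4, a heparan sulphate proteoglycan of cell contacts, had the difference farthest from 0, at 0.52, and its groups overlapped (7.35 to 8.64 and 8.04 to 9.17). The groups of 3 genes of this list did not overlap, all lower in knockout cells: Klb at −0.33, Gpc3 at −0.25 and Flrt3 at −0.34. Of all genes 4.47% did not overlap with knockout lower and 3.45% with knockout higher. Klb encodes the co-receptor for endocrine FGFs, Gpc3 a glypican and Flrt3 a membrane protein that binds FGF receptors. Klb was below the median level. None of the 3 passed (limma, adjusted p = 1.00 for each).

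Of 15 genes of signal transduction 9 were lower and 6 higher, with a median of −0.02. Gab1, a docking adaptor, read 10.24, 10.07 and 8.56 in wild-type and 11.34, 10.46 and 9.86 in knockout replicates 1 to 3, higher at each number with overlapping groups (difference 0.93; limma, adjusted p = 1.00, blocked 0.159). Gab1 lies on chromosome 8, like Fgfr1, and the part of that chromosome's shift in the Gab1 value was not tested. Of 13 feedback inhibitors 5 were lower and 8 higher, with a median of 0.02. Dusp6, the phosphatase that switches off ERK, had the difference farthest from 0 of all 80 genes. It read 8.91, 8.47 and 8.35 in wild-type and 10.61, 8.77 and 10.90 in knockout replicates 1 to 3, with knockout replicate 2 below wild-type replicate 1. The difference was 1.52 (limma, adjusted p = 1.00, blocked 0.248). Knockout replicates 1 and 3, which held the most Dusp6 RNA, were those with the least Fgf15 and Fgfr2. This order of 3 arrays was seen after the values were known, and a link between these genes was not tested. Spry1, another inhibitor, differed by −0.52 (blocked adjusted p = 0.239 in limma). Etv4 and Etv5, ETS factor genes switched on by FGF signalling, differed by −0.19 and 0.18.

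Of 11 streak and mesoderm genes that depend on FGF signalling 10 were lower in knockout cells, where 9771 of all 18194 genes were. Of the 11, 3 (Cdx1, Cdx4 and Wnt3a) were below the median level. Only Mesp2, Cdx4 and Cyp26a1 were lower in every pair, as were 14.9% of all genes. The median of the 11 was −0.29, or −0.49, −0.44 and −0.24 in pairs 1, 2 and 3. The median over all genes was −0.00 in pair 1, 0.00 in pair 2 and −0.02 in pair 3. Cyp26a1, which degrades retinoic acid, had the difference farthest from 0 in this list. It read 12.68, 12.44 and 12.76 in wild-type and 11.86, 10.95 and 12.49 in knockout arrays, a difference of −0.86 (limma, adjusted p = 1.00, blocked 0.275). Mesp2, a somite boundary factor gene, differed by −0.82. These groups overlapped.

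Markers of other cell types were set beside these values. Mixl1, a streak homeobox gene, read 11.85 to 12.39 in wild-type and 13.18, 12.01 and 13.22 in knockout replicates 1 to 3. Knockout replicates 1 and 3 were thus above all wild-type arrays. Hand2, a heart and limb factor gene, was lower in every pair (10.05 ± 0.65 against 7.35 ± 0.52) and was the 1 marker of the 6 cardiac ones called with the block (limma, adjusted p = 0.00103, or 0.174 without the block). Of these 6 markers 5 were lower and 1 higher, with a median of −0.34. Myl7 differed by −1.44, Tbx5 and Gata4 by −0.39 and −0.29, and Nkx2-5 and Isl1 by −0.08 and 0.01. Gsc, another streak homeobox gene, read 6.89, 5.87 and 6.54 in wild-type and 7.80, 5.79 and 7.88 in knockout replicates 1 to 3. Knockout replicates 1 and 3 were above all wild-type arrays for this gene too. Of the 5 streak markers 4 were higher and 1 lower, with a median of 0.19: Eomes and Evx1 differed by 0.19 and 0.10 and Mesp1, which is also in the list of FGF-dependent genes, by −0.55. The other streak markers did not share the pattern of Mixl1 and Gsc. Knockout replicate 3 lay within the wild-type range for Eomes (12.76) and Evx1 (10.56). For Mesp1, knockout replicates 1 and 2 (11.23 and 10.33) read below all wild-type arrays. Of the 9 haemangioblast markers 4 were lower and 5 higher, with a median of 0.01, and Cdh5, Lmo2 and Etv2 differed by 0.66, 0.62 and 0.46. By pair, Cdh5 differed by 1.45, 1.27 and −0.72 and Etv2 by 0.94, −0.42 and 0.85, while Lmo2 was higher in each pair. Cdh5 and Hand2 lie on chromosome 8, like Fgfr1, and the part of that chromosome's shift in their values was not tested. Fli1, a blood and vessel ETS factor gene, had the difference farthest from 0 of the haemangioblast markers, at −1.04, and Sox17, an endoderm factor gene, that of the endoderm markers, at −0.74. Knockout replicate 3 was the lowest array for both, at 5.62 and 5.86. Among the haemangioblast markers it was also the lowest for Cdh5, Tek, Tal1, Gata2 and Pecam1, but not for Kdr, Lmo2 and Etv2. Tbx6 led the paraxial markers at −0.26 and Pax6 the neural ones at −0.20. None of Gsc, Fli1, Sox17, Tbx6 and Pax6 passed in either fit. Over the 5 streak markers the mean level ran from 10.34 to 11.05 in wild-type and from 10.00 to 11.26 in knockout arrays. Over the 9 haemangioblast markers it ran from 8.68 to 9.06 and from 8.05 to 9.32, and over the 6 cardiac ones from 8.42 to 8.96 and from 7.67 to 8.03. Of 5 paraxial mesoderm markers 2 were below the median level (Meox1 and Pax3), of 7 endoderm markers 5 (Foxa2, Foxa1, Afp, Apoa1 and Cer1) and of 4 neural ones 3 (Sox1, Pax6 and Sox3). The endoderm and paraxial lists ran from 5.73 to 6.05 and from 5.83 to 6.17 in wild-type, and from 5.42 to 6.09 and from 5.77 to 5.94 in knockout arrays. The neural list ran from 5.78 to 6.39 and from 5.97 to 6.04. The part of the cell mix in the Fgf3, Fgf15 and Fgfr2 values was not tested.

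**Figure D5:**
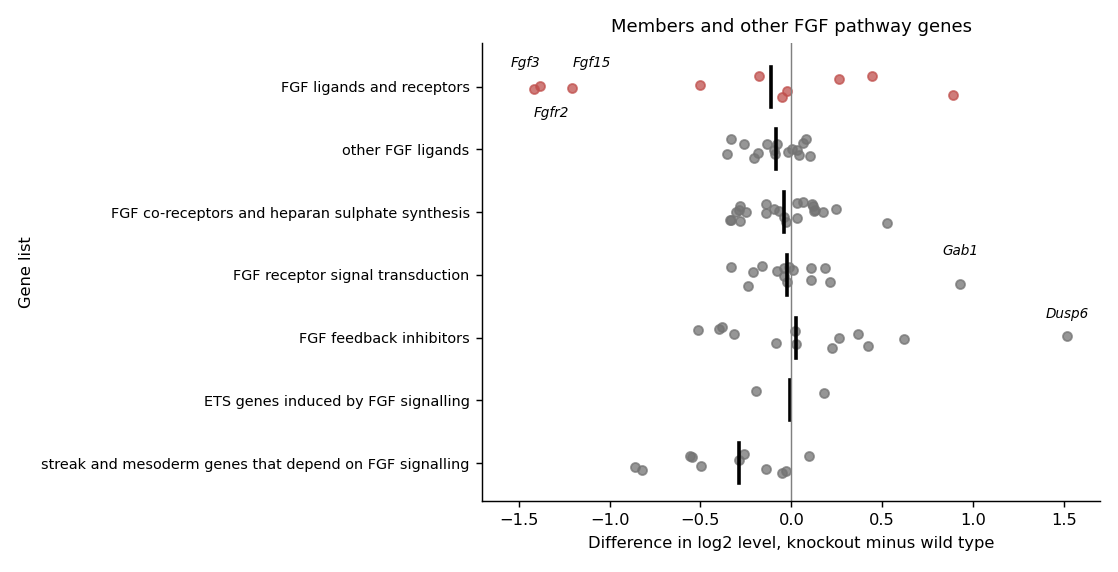
Difference in log2 level, knockout minus wild type, for the 10 FGF genes (red) and 6 lists of other pathway genes (grey), 1 point a gene, with a bar at each list's median. Fgf3, Fgf15 and Fgfr2 lie at −1.20 to −1.42, Dusp6 at 1.52 and Gab1 at 0.93, and most other genes lie close to 0.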

How the data were processed

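Expression was measured on 6 Affymetrix mouse arrays, 3 per genotype. The authors deposited 1 log2 value for each probe set and array. The submitters' processing notes name RMA and affy without versions, and the log2 scale was taken from RMA and from the range of the values. Of 45101 probe sets, 64 were controls, 34945 had exactly 1 gene in the array annotation, 932 several and 9160 none. Where a gene had several, the one with the largest average across arrays stood for it, which gave 18194 genes. Knockout minus wild type was fitted in limma 3.58.1 (R 4.3.3; lmFit and eBayes, two-sided) without and then with a block for the replicate number, and p-values were adjusted over all genes by Benjamini-Hochberg, with 0.05 as the limit. The deviations of same-numbered arrays from their genotype means correlated at 0.698, 0.350 and 0.446 across probe sets for numbers 1, 2 and 3, each over the limit of 0.1, so the numbers were taken to pair the arrays, although the labels do not say what they stand for. No 2 arrays held the same values.

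The 10 genes and the lists were chosen with earlier results of these data known. Named were all 10 genes, Ldb1 and Kdr, of each list the members past the threshold in either fit or else the one with the difference farthest from 0, and the 3 genes most correlated with each of the 10 that was above the median level. Ano1, Ccnd1, Fgf13, Klb, Gpc3, Flrt3, Spry1, Etv5, Mesp2, Pou5f1, Nanog, Mixl1, Eomes, Evx1, Mesp1, Cdh5, Lmo2, Etv2 and the markers below the median level were named after their values were seen. Alternatives were each array or pair left out, a filter on dim genes, other normalisation, centring, variance and array weights, and other choices of probe set. The fits were tested on simulated data. The number of arrays limits the precision. Promoter windows and gene order came from RefSeq tables of GRCm38.p6. Plots were made in matplotlib 3.10.9 (Python 3.11.15).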

Additional observations from a re-analysis of the deposited data

How the results depend on the processing

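Over the 20 settings tried, Fgf3 kept its direction, from −1.57 to −1.26, and passed in 6 of them, among them the replicate block and, without the block, array weights (limma, adjusted p = 0.0355). Fgf15 and Fgfr2 kept theirs, from −1.60 to −0.94 and from −1.85 to −0.33, and passed in 2. The value of −0.33 for Fgfr2 came from leaving out probe sets whose IDs end in _s_at, _x_at or _a_at. The count of genes called was 4 as reported, 62 with the replicate block, 68 with array weights, and 55 and 48 with the block and only genes above the median level or averaged probe sets. The 4 were Eif2s3y, Hbb-bh1, Mest and Uty, all lower in knockout cells. Whether they differ by line or by genotype cannot be told apart here. With 1 array left out the count of genes called ran from 1 to 6, and with the block and 1 pair left out it was 50, 267 and 815. The count among the 10 genes was 0 as reported and 1, Fgf3, with the block, with array weights, and with the block and only genes above the median level or averaged probe sets. With 1 array left out it stayed at 0, and with the block and the pair numbered 1, 2 or 3 left out it was 0, 4 and 3. Among the other pathway genes it was 0, 2 and 7 with the block and the pair numbered 1, 2 or 3 left out, and 0 in the other settings. Fgf4, Fgf10 and Fgfr4 turned their direction. With probe sets averaged Fgf4 stood at −0.62 and was not called. With single arrays left out, Fgf4 ran from −0.31 to 0.086 (above 0 without wild-type replicate 3), Fgf10 from −0.32 to 0.38 (above 0 if wild-type replicate 1 or knockout replicate 2 was dropped) and Fgfr4 from −0.14 to 0.076 (above 0 if replicate 3 of either genotype was dropped). With array weights Fgf4 stood at 0.11 and Fgfr4 at 0.13. With the block they stood at 0.20 and 0.15 once the pair numbered 3 was dropped, and Fgf10 at 0.00067 and 0.28 once the pair numbered 1 or 2 was. Fgf5 could not be fitted among genes above the median level, because its own mean lies below it. Fgf8 could not be fitted without _a_at probe sets, because its only probe set is of that kind. The cause of the other differences between settings was not tested.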
